A study of Mus musculus with 5 samples.

Results

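The nuclear-encoded subunits of the respiratory chain and of ATP synthase were examined in CD11b-positive cells from mouse brain. Members were the protein-coding rows of the count table whose symbols begin with Ndufa, Ndufb, Ndufc, Ndufs or Ndufv and a digit, are Sdha to Sdhd, or begin with Uqcr, Cox4 to Cox8 or Atp5. This rule found 88 of the 56748 rows, with 87 symbols because Atp5o has 2 Ensembl identifiers. Complex I had 37 members, complex II 4, complex III 8, complex IV 21 and complex V 18. Subunits with other symbols, such as Ndufab1 of complex I and Cyc1 of complex III, are outside the rule. They are not in the counts, sums and medians of the complexes. Ndufa4 and its relative Ndufa4l2 were counted with complex IV, since the Ndufa4 protein is a subunit of that complex. Of the 88 members, 83 had enough counts to be tested. Ndufb11b, Cox7b2, Cox8c and the second Atp5o identifier had no count in any library, and Cox7a1 fell below the count filter.

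All mice carried the 5xFAD transgenes, which express mutant human amyloid precursor protein and presenilin 1 and give amyloid plaques in the brain. The first group, called 5xFAD here, held 2 mice (replicates 1 and 3). The second group, 5xFAD/Cd5l tg/wt, held 3 mice (replicates 1, 2 and 3) that also carried a transgene that expresses mouse CD5L from the promoter of human PDGF-B, and is called Cd5l-transgenic. All were 7 months old, their brains were taken without the cerebellum, and wild-type mice are not analysed here. The comparison asks how forced CD5L, a secreted scavenger protein of macrophages, alters these cells in the amyloid model. The PDGF-B promoter is widely used to drive transgenes in neurons, and the labels do not say which brain cells made the protein.

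Electrons from NADH enter the chain at complex I and those from succinate at complex II, pass through complex III to complex IV, where oxygen is reduced, and complex V uses the proton gradient made by complexes I, III and IV to form ATP. Nuclear genes encode most subunits and mitochondrial DNA encodes a small set of core ones. Microglia rely on this oxidative route when surveying, and shift toward glycolysis when activated. Several subunits of complex IV exist as pairs of isoforms, one widely used and one typical of muscle, lung, testis or other tissues.

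Library totals ran from 30798377 to 34794617 counts, and values are CPM, the counts scaled to library size and by the TMM method. The Cd5l transcript was at 1.52 and 0.254 CPM in the 5xFAD libraries and at 234, 335 and 195 CPM in the Cd5l-transgenic libraries, as the labels state. The 10 microglia markers summed to between 23543 and 25848 CPM and Itgam, the gene of CD11b, to between 305 and 363 CPM. Other cells also contributed: choroid plexus and ependymal markers summed to 4094 CPM in 5xFAD replicate 3 against 411 to 955 CPM elsewhere, and oligodendrocyte markers to 4176 CPM in Cd5l-transgenic replicate 2 against 335 to 1063 CPM elsewhere. The 10 plaque-associated microglia markers summed to 37572 CPM in 5xFAD replicate 1 against 18691 to 23852 CPM elsewhere. Blood marker sums were higher in all Cd5l-transgenic libraries. The 8 monocyte and neutrophil markers summed to 56.3 and 71.3 CPM in 5xFAD against 73.9 to 177 CPM, and the erythroid markers to 1.49 and 2.40 CPM against 7.40 to 20.7 CPM. All 8 of the former were higher by difference of mean log2 CPM, 4 of them without overlap (50%, against 7.2% of all genes). All 5 tested erythroid markers were higher without overlap. None of these markers was called by edgeR, and 1, an erythroid marker, by DESeq2. The part of these cells and states in the values below was not tested. Over all 17724 tested genes the edgeR quasi-likelihood test called 0 genes at an adjusted p under 0.05, while 474 (2.67%) had an unadjusted p under 0.05. DESeq2 called 10 of the 17036 genes to which it gave an adjusted p (0.0587%). In bulk RNA, a change in the number of cells of a type and a change in RNA per cell cannot be told apart.

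None of the 83 tested subunit genes passed the test in either direction, by edgeR (0% of all genes in each direction) or by DESeq2. The lowest adjusted p of any member was 0.999 by edgeR, where 1 member had an unadjusted p under 0.05 in the higher direction (1.22% of all genes) and 1 in the lower direction (1.46%). DESeq2 gave 2 members an unadjusted p under 0.05 (4.06% of all genes). The members lay on both sides of zero: 40 were higher and 43 lower (51.8%) with the transgene, where 57.2% of all genes were lower, and the median difference of mean log2 CPM was -0.0060 against -0.026 over all tested genes. Their log2 fold changes were small, with a median size of 0.058 (0.13 over all tested genes), and 73 of the 83 were below 0.2 in size. The median standard error (SE) of a member was 0.11. Differences well above that size were not called: Atp5g1 at -0.42 (SE 0.13) and Ndufa4l2 at 1.23 (SE 0.42) each had an edgeR adjusted p of 0.999. Without 5xFAD replicate 3 and Cd5l-transgenic replicate 2, edgeR called 98 genes of the whole table (0.542%) and 0 members. That setting leaves 5xFAD replicate 1, the library with the most plaque-associated markers, as the only 5xFAD mouse, assumed to vary like the others, against 2 Cd5l-transgenic mice.

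Which side of zero the members lay on depended on single mice and on the scaling. Of 84 members, 62 were lower (73.8%) without 5xFAD replicate 3 and 34 (40.5%) without 5xFAD replicate 1, against 53.3% and 54.2% of all genes. Without Cd5l-transgenic replicate 3, 25 of 83 members were lower (30.1%, against 52.5% of all genes), and without Cd5l-transgenic replicate 2, 52 of 82 were lower (63.4%, against 50.8%). Without 5xFAD replicate 3 and Cd5l-transgenic replicate 2, the libraries with the most choroid plexus and oligodendrocyte markers, 64 of 82 members were lower (78% against 49.8% of all genes) and their median difference was -0.11. With library totals in place of TMM, 34 of 83 were lower (41% against 47.7% of all genes). Within a genotype the subunit genes also differed together: 26 of 83 were higher in 5xFAD replicate 3 than in replicate 1, and 17 of 83 were higher in Cd5l-transgenic replicate 3 than in replicate 2. No direction with the transgene held over these settings.

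The libraries of the 2 genotypes did not overlap for 13 members, which is 15.7% of those tested and close to the 15.9% of all genes. Of these 13, 3 were higher with the transgene (7.2% of all genes: Ndufs6, Ndufa4l2 and Cox4i2). The other 10 were lower (8.68% of all genes: Ndufa1, Ndufb5, Ndufs3, Ndufv2, Uqcrc1, Cox5a, Cox7b, Atp5g1, Atp5g3 and Atp5o). In 58 of the 83 members, the 2 5xFAD mice differed from each other by more than the group means did. The share of all genes was not computed. Single mice vary more than group means, so this count alone says nothing particular about the members.

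**Figure D1:**
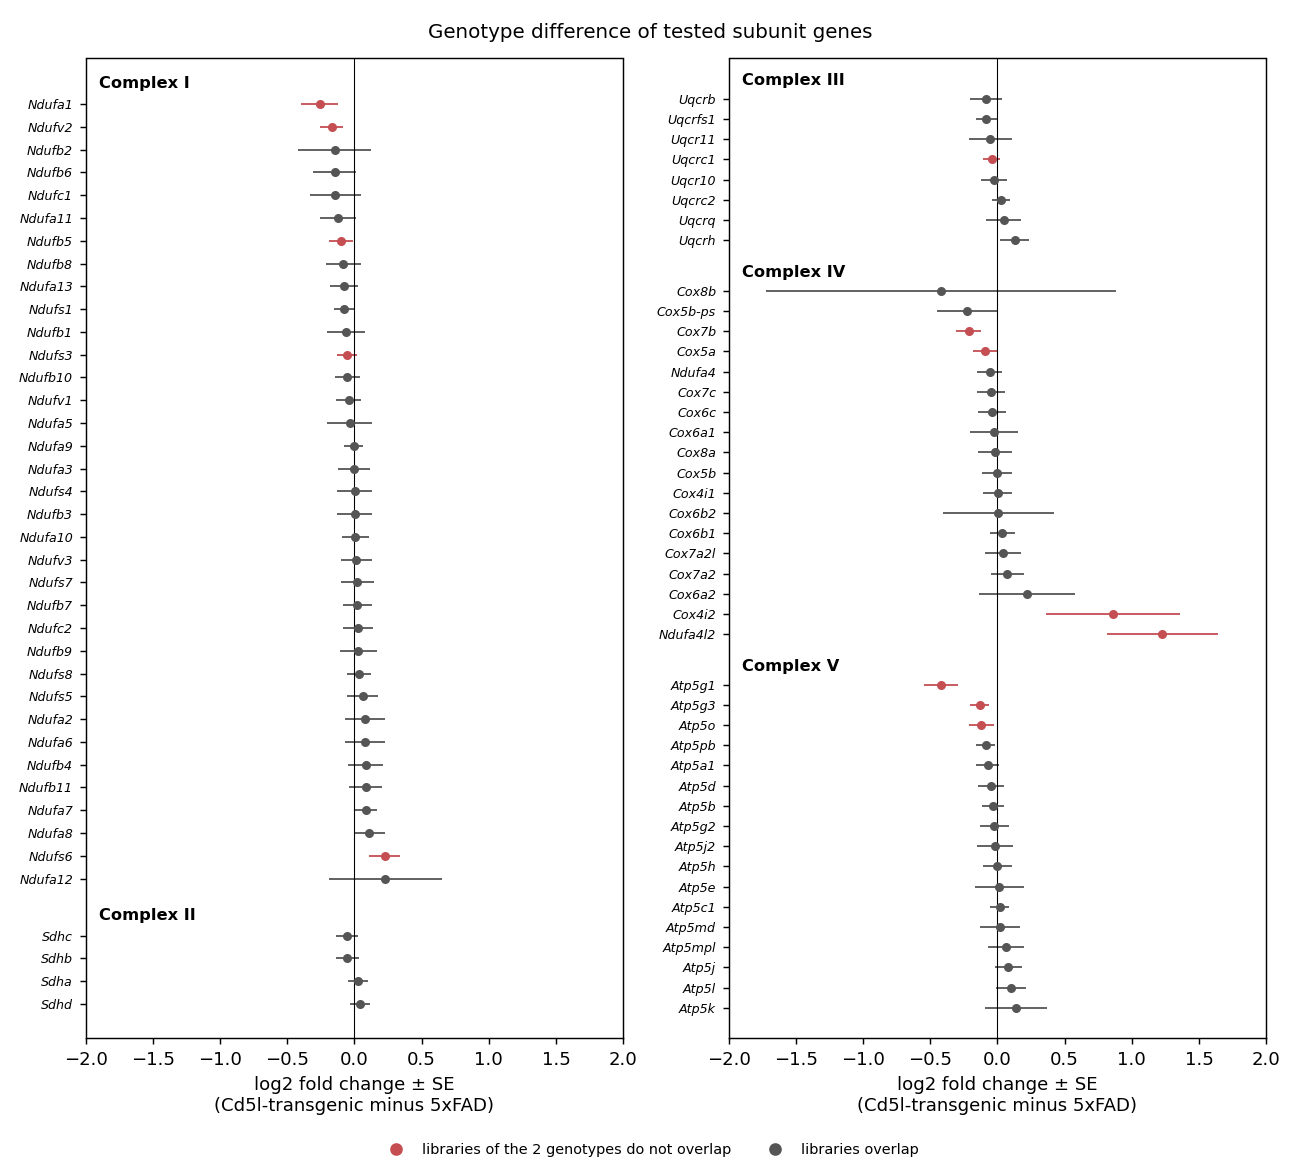
Log2 fold change of the tested subunit genes but 1 (x axis, Cd5l-transgenic minus 5xFAD, edgeR) with its SE as a bar, grouped by complex, red where the libraries of the genotypes do not overlap. Most genes lie within 0.2 of zero, 13 are red, and Ndufa4l2 and Cox4i2 stand to the right of the rest of complex IV.

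Summed over members, complex I was at 1057 and 999 CPM in the 5xFAD libraries and at 1026, 1077 and 950.2 CPM in the Cd5l-transgenic libraries. Complex II summed to 347 and 334 CPM against 341, 348 and 334 CPM. Complex III summed to 372 and 354 CPM against 365, 375 and 348 CPM. The ranges of the genotypes overlapped in each of these complexes. Complex IV summed to 902 and 785 CPM against 892, 902 and 747 CPM, and complex V to 1414 and 1308 CPM against 1336, 1359 and 1282 CPM. The genotypes overlapped here too, and no test was made of the sums. Single genes weighed heavily in some of them. In 5xFAD replicate 1, Sdha gave 196 of the 347 CPM of complex II and Cox7a2l 203 of the 902 CPM of complex IV. Atp5b gave 357 and Atp5a1 338 of the 1414 CPM of complex V in that library. The means differed by less than the SD within either group for complexes I to V, the largest gap being that of complex V (1361 ± 75.04 CPM, SD, n = 2, against 1326 ± 39.9 CPM, SD, n = 3). Replicate 3 of each genotype had the lower sums: Cd5l-transgenic replicate 3 was the lowest library in all 5 complexes, and 5xFAD replicate 3 was below 5xFAD replicate 1 in all 5. 5xFAD replicate 1, with the most plaque-associated markers, had the highest sum over all members (4092 CPM).

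**Figure D2:**
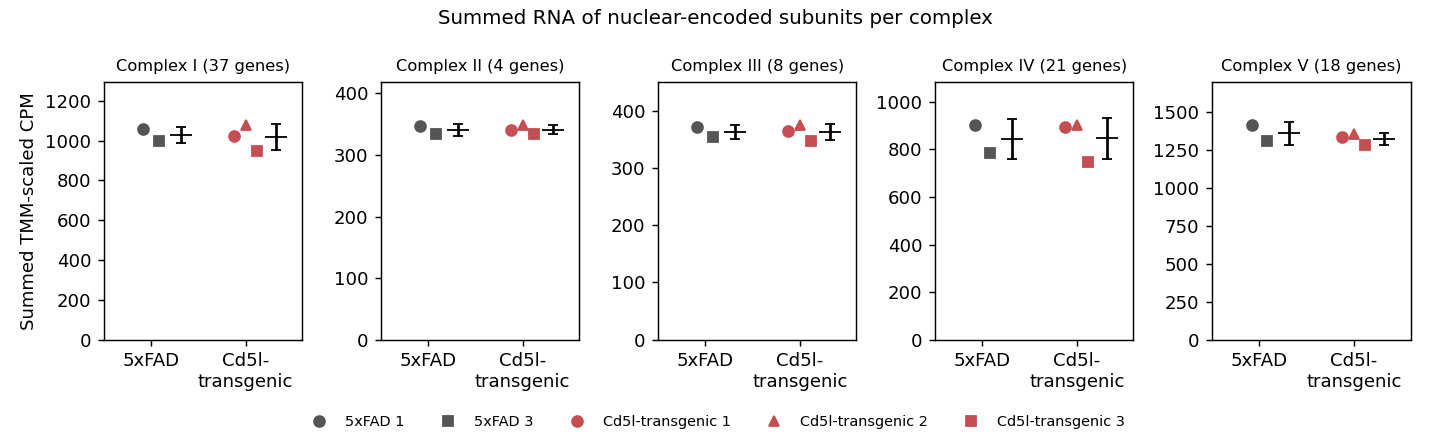
Summed TMM-scaled CPM of the members of each complex (y axis) in each library, with the group mean and SD as a bar beside the points. The genotypes overlap in every complex, and replicate 3 of each genotype lies below the other libraries of its group.

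The members differed widely in level per gene length. Counted per kilobase of the gene length in the table, the median member was at 17.0 CPM per kb in complex I, 28.4 in complex II, 32.1 in complex III, 21.5 in complex IV and 20.6 in complex V, against 3.32 CPM per kb for all tested genes. The highest levels were those of Cox8a (136 CPM per kb), Cox7a2l (124), Cox6a1 (112), Cox4i1 (109) and Atp5a1 (102). The lowest tested members were Ndufb2 (0.82 CPM per kb) and the isoforms Cox8b (0.97) and Cox4i2 (1.03). The place of Ndufb2 rests on a listed length of 5628 bases, since its mean level was 4.62 CPM against 0.351 CPM for Cox8b. The members varied less over the 5 libraries than genes in general, with a median coefficient of variation of 8.28% against 13.5%. They also had higher levels than genes in general, and the part of level in this value was not tested.

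Complex I takes electrons from NADH through a flavin and a series of iron-sulfur clusters to ubiquinone. Its 7 nuclear core genes were 3 higher and 4 lower, and its 29 tested accessory genes 15 higher and 14 lower. The median difference of complex I was -0.0024. Ndufv1, which binds NADH and the flavin, was at 49.7 and 49.3 CPM in the 5xFAD libraries, against 45.9, 52.8 and 45.5 CPM in the Cd5l-transgenic ones. Ndufs1, the largest iron-sulfur subunit, was at 63.8 and 61.8 against 55.8, 60.8 and 62.2 CPM. Both of these core genes overlapped between genotypes.

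The smallest p of complex I in the lower direction was that of Ndufv2, which carries an iron-sulfur cluster beside the flavin subunit. Its libraries were at 27.5 and 29.2 CPM in the 5xFAD libraries, against 25.3, 24.3 and 26.0 CPM in the Cd5l-transgenic ones, so that all transgenic values were lower. The log2 fold change was -0.17 (SE 0.083, edgeR adjusted p = 0.999). In the higher direction it was Ndufs6, an accessory zinc-binding subunit, at 13.3 and 12.6 CPM against 16.1, 15.2 and 14.0 CPM. All transgenic values were higher, with a log2 fold change of 0.22 (SE 0.12, edgeR adjusted p = 0.999).

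A pair of accessory subunits is named after their values were seen. Ndufa1, a small membrane subunit on the X chromosome, was the lowest of complex I by fold change, at 39.6 and 34.1 CPM against 33.0, 33.3 and 25.9 CPM (log2 fold change -0.26, SE 0.14, edgeR adjusted p = 0.999). The value was -0.13 without Cd5l-transgenic replicate 3 and -0.15 without 5xFAD replicate 1. Its groups did not overlap, although 5xFAD replicate 3 and the first 2 transgenic libraries were close. Ndufa12, an accessory subunit of the peripheral arm, was at 8.84 and 7.56 CPM against 7.49, 15.3 and 6.05 CPM. A single library, Cd5l-transgenic replicate 2, was high, and its log2 fold change of 0.23 (SE 0.42) became -0.26 without that library. That library also had the highest oligodendrocyte, astrocyte and neuron marker sums (4176, 322 and 9.75 CPM). The same held for the endothelial, mural and erythroid marker sums (1100, 451 and 20.7 CPM). The part of all these cells in the Ndufa12 value was not tested.

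**Figure D3:**
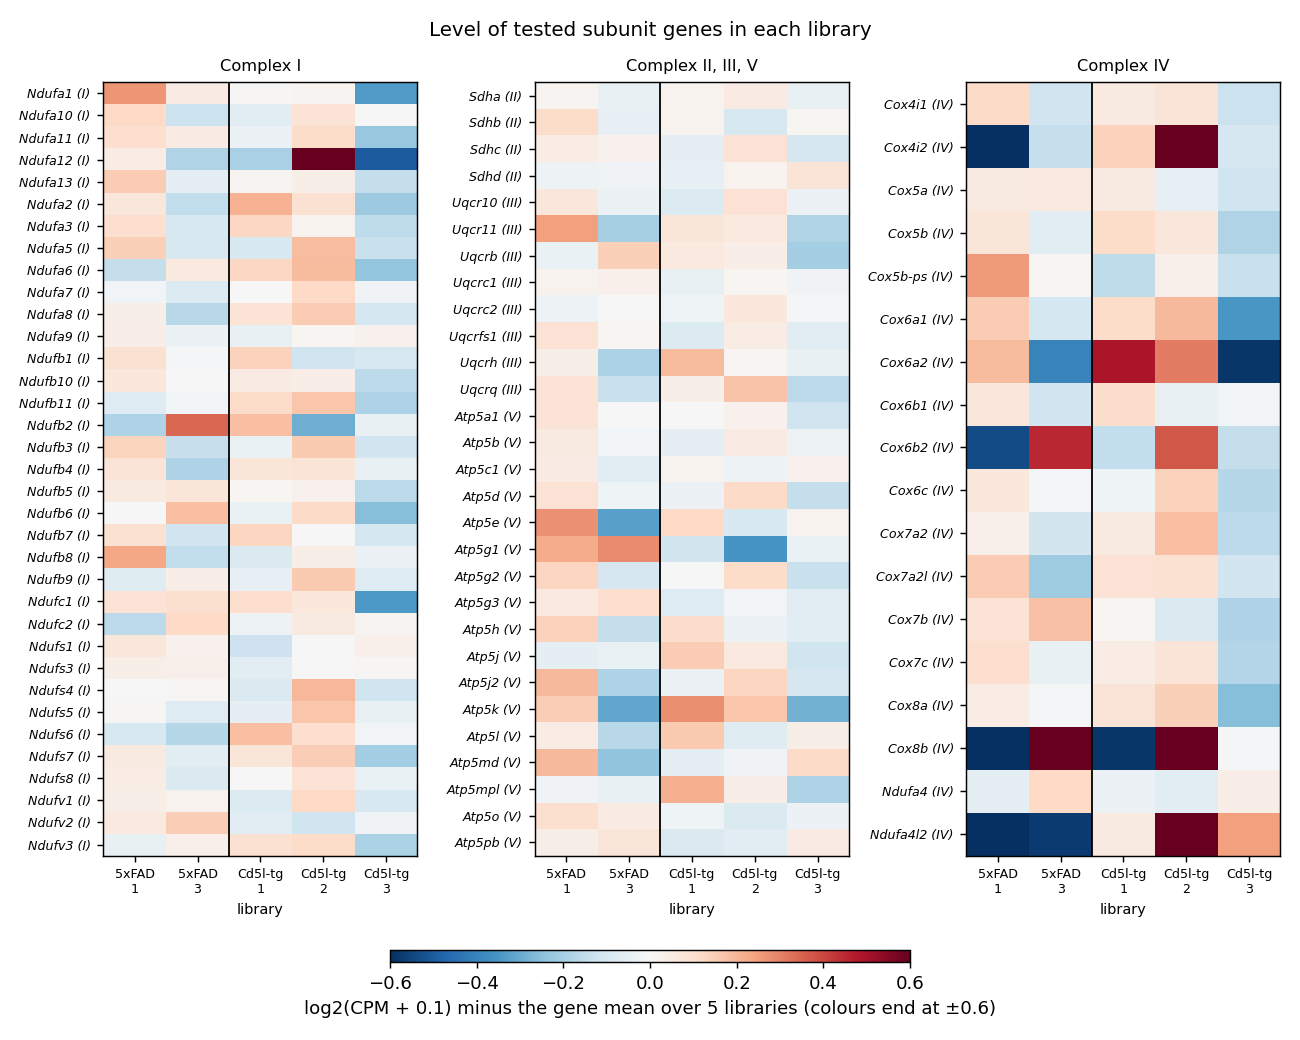
Level of the tested members but 1 in each library, as log2 CPM minus the mean of that gene over the 5 libraries (red above, blue below the gene mean; a line divides the genotypes). Most rows are pale, and the columns of replicate 3 are bluer than those of replicate 1, while Cox4i2, Cox6a2, Cox6b2, Cox8b, Ndufa4l2 and Ndufa12 are strongly coloured.

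Complex II, succinate dehydrogenase, belongs both to the chain and to the tricarboxylic acid cycle and has no mitochondrially encoded subunit. Its 4 genes were 2 higher and 2 lower, none without overlap, with a median difference of -0.014. Sdha, the flavin subunit that oxidises succinate, was at 196 and 189 CPM in the 5xFAD libraries, against 198, 201 and 189 CPM in Cd5l-transgenic libraries. Sdhb, the iron-sulfur subunit, was at 50.2 and 45.0 against 47.2, 43.5 and 47.0 CPM. The catalytic head thus overlapped between genotypes in both of its genes. Of the membrane anchors, Sdhc was at 57.1 and 56.4 against 53.3, 58.7 and 51.5 CPM, and Sdhd at 43.3 and 43.6 against 42.7, 44.8 and 46.5 CPM. The log2 fold changes of the 4 genes lay between -0.058 and 0.041, each smaller than its SE.

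Complex III passes electrons from ubiquinol to cytochrome c. Its 8 members were 3 higher and 5 lower, with a median difference of -0.034. Cyc1, a subunit outside the symbol rule, is not among them and had a log2 fold change of -0.0037 (SE 0.082). Uqcrc1, a core protein and the member of complex III with the highest mean CPM, was at 88.5 and 89.2 CPM in the 5xFAD libraries, against 84.7, 88.0 and 86.1 CPM in Cd5l-transgenic libraries. The groups did not overlap, but the highest transgenic value was within 1 CPM of the lowest 5xFAD value, and the log2 fold change was -0.042 (SE 0.063). It was also the member that varied least, with a coefficient of variation of 2.12%. Uqcrfs1, the Rieske iron-sulfur protein, was at 48.9 and 46.4 against 43.4, 47.4 and 44.1 CPM (log2 fold change -0.083, SE 0.077). Uqcrh, the acidic hinge protein that helps cytochrome c dock, was at 58.7 and 50.1 against 65.3, 57.7 and 55.6 CPM (0.13, SE 0.11). The libraries of Uqcrfs1 and Uqcrh overlapped, and the Uqcrh value was 0.019 without 5xFAD replicate 3 and 0.25 without 5xFAD replicate 1.

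Complex IV, cytochrome c oxidase, held the widest range of fold changes. Its 18 tested members were 9 higher and 9 lower, with a median difference of -0.00078 that became -0.032 without the tissue isoforms. The widely used isoforms and single-copy subunits accounted for 11 of these genes, of which 3 were higher and 8 lower. Cox4i1, the main isoform of subunit 4, was at 182 and 155 CPM in the 5xFAD libraries, against 175, 178 and 154 CPM in Cd5l-transgenic libraries (log2 fold change 0.0028, SE 0.11). Cox5a was at 27.2 and 27.2 against 27.1, 25.3 and 24.0 CPM, and Cox5b at 36.8 and 33.5 against 37.8, 36.7 and 30.8 CPM. Cox5a did not overlap but by a margin under 0.05 CPM. Cox7b, encoded on the X chromosome, had the smallest p of complex IV in the lower direction, at 26.7 and 28.5 CPM against 25.5, 23.7 and 22.2 CPM. Its log2 fold change was -0.22 (SE 0.096, edgeR adjusted p = 0.999), and the groups did not overlap.

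Cox7a2l, which links complexes III and IV into supercomplexes, had the highest mean CPM of complex IV. It was at 203 and 158 CPM in the 5xFAD libraries, against 194, 195 and 169 CPM in Cd5l-transgenic libraries (log2 fold change 0.043, SE 0.13). Ndufa4 was at 24.7 and 27.9 against 25.0, 24.4 and 26.3 CPM (-0.058, SE 0.095). Both overlapped between genotypes. Cox5b-ps, a pseudogene by its name although listed as protein-coding, was at 4.71 and 3.95 against 3.52, 4.01 and 3.57 CPM, and reads it shares with Cox5b may be assigned to either.

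The isoform pairs differed in how far the tissue form was present, measured as its share of the pair in CPM per kb. Cox4i1 made up between 98.4% and 99.6% of subunit 4, and Cox8a between 98.3% and 100% of subunit 8. Cox6b2, the testis form of subunit 6b, made up between 1.53% and 3.51%, and Cox7a1, the muscle form of subunit 7a, between 0.631% and 2.37%. The tissue forms of these pairs were thus minor in every library. Cox6a2, the heart and skeletal muscle form of subunit 6a, differed: it made up between 28.6% and 39.1% of the Cox6a pair.

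Cox6a2 lies at chr7:127804607-127805559 on the minus strand (GRCm39), inside the span of the integrin gene Itgad on the opposite strand. It was at 42.5 and 28.2 CPM in the 5xFAD libraries, against 52.4, 46.2 and 24.9 CPM in Cd5l-transgenic libraries, a 2.1-fold range with full overlap. Its log2 fold change was 0.22 (SE 0.36), and it was -0.050 without 5xFAD replicate 3. Its partner Cox6a1 was at 86.8 and 72.8 against 84.3, 89.4 and 61.4 CPM, so that both forms were lowest in replicate 3 of each genotype. Itgad itself was between 0.451 and 0.677 CPM, so the Cox6a2 reads exceeded those of the gene around it. Itgax and Itgam, the other integrin genes on this stretch, were between 735 and 1502 and between 305 and 363 CPM.

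The promoter windows of the subunit 8 pair differ in the motif letters they hold. Not all pairs did: Cox7a2 and Cox7a1 held none of the 5 motifs searched, while Cox6b1 held ETS letters and Cox6b2 held none. Cox4i1, Cox4i2 and Cox6a2 had no window. The windows shown are RefSeq sequences (GRCm38.p6), from 250 bases before to 30 bases after the start, 5′ to 3′ on the gene's strand, with matched motif letters in capitals. Cox8a is at chr19:7217587-7217866 (minus strand) and holds the ETS letters CCGGAAG on its opposite strand, at position -5 from the start. A second match, at position 33, lies beyond the printed end. Cox8b is at chr7:140900417-140900696 (minus strand) and holds the TATA letters at position 5, which is after the listed start.
Cox8a: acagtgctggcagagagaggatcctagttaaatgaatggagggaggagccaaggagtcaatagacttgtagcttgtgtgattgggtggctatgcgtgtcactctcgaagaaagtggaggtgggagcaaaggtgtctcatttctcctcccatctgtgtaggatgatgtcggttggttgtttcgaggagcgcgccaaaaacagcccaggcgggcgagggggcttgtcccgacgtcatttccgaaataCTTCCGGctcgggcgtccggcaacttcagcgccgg
Cox8b: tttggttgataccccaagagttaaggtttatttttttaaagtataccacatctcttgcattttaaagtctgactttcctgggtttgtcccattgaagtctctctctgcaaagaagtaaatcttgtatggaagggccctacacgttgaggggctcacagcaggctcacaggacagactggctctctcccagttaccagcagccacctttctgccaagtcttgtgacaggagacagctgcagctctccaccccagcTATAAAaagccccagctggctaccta
Cox8a was at 86.2 and 82.7 CPM in the 5xFAD libraries, against 88.2, 92.3 and 70.0 CPM in Cd5l-transgenic libraries. Cox8b, the heart and muscle form, was at 0 and 0.818 against 0.129, 0.564 and 0.242 CPM. Its 5xFAD libraries enclose the transgenic ones, and 3 counts corresponded to between 0.0846 and 0.102 CPM. Its fitted log2 fold change was -0.42 (SE 1.31), whereas the difference of mean log2 CPM with a prior count of 2 was above 0. Cox8b was highest in 5xFAD replicate 3, the library with the highest choroid plexus and ependymal marker sum (4094 CPM). All 9 of those markers were below 0 in difference and none was at 0 in any library. The astrocyte markers Aqp4 and Gja1 were also highest in that library, and the rest of the astrocyte list was not. The part of these cells in the Cox8b values was not tested.

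Ndufa4l2 and Cox4i2 had the largest fold changes of all members, at low levels. Ndufa4l2, a hypoxia-inducible relative of Ndufa4, lies at chr10:127350836-127353023 (GRCm39) and was at 1.02 and 1.16 CPM in the 5xFAD libraries, against 1.84, 3.70 and 2.12 CPM in Cd5l-transgenic libraries. All transgenic values were higher, Cd5l-transgenic replicate 2 most, with a log2 fold change of 1.23 (SE 0.42, edgeR adjusted p = 0.999). It stayed between 0.88 and 1.42 when single libraries were left out. As a share of the pair with Ndufa4 it was 4.93% and 4.96% in 5xFAD and 8.50%, 16.0% and 9.20% in Cd5l-transgenic libraries. Ndufa4l2 overlaps Shmt2 on the opposite strand, a serine and glycine metabolism gene, and the strand setting of the counting was not given in the sources used here.

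Cox4i2, the oxygen-responsive isoform of subunit 4 known from lung, was at 0.406 and 0.677 CPM against 0.840, 1.44 and 0.695 CPM. The groups did not overlap, but 5xFAD replicate 3 and Cd5l-transgenic replicate 3 were nearly equal (log2 fold change 0.86, SE 0.50, edgeR adjusted p = 0.999). The value was 0.51 without Cd5l-transgenic replicate 2, 0.55 without 5xFAD replicate 1 and 1.28 without 5xFAD replicate 3. In mouse brain, Ndufa4l2 and Cox4i2 are both known from pericytes, the mural cells of capillaries. The 7 mural cell markers summed to 260 and 267 CPM in the 5xFAD libraries, against 349.5, 451 and 346 CPM in Cd5l-transgenic libraries. By the difference of mean log2 CPM, 6 of these 7 were higher with the transgene, 3 of them without overlap (7.2% of all genes), and none was at 0. The remaining difference was -0.026, although the fitted log2 fold changes below are above 0. The 3 were Acta2, Myh11 and Tagln, contractile genes of vascular smooth muscle. DESeq2 called them too (adjusted p = 0.0342, 2.26e-05 and 0.0263, against 0.0587% of the genes to which it gave an adjusted p), and edgeR did not. The genes of the list known from pericytes overlapped: the log2 fold change was 0.68 (SE 0.33) for Pdgfrb, 0.21 (SE 0.41) for Rgs5, 0.36 (SE 0.51) for Kcnj8 and 0.03 (SE 0.54) for Cspg4. The 7 endothelial markers summed to 569 and 533 CPM against 608, 1100 and 618 CPM. All 7 were higher by difference of mean log2 CPM, where 57.2% of all genes were lower. Of these 7, 5 did not overlap (71.4%, against 7.2% of all genes), and none was called by edgeR or DESeq2. Mural and endothelial sums, like Ndufa4l2 and Cox4i2, were highest in Cd5l-transgenic replicate 2, whereas Cspg4 was highest in Cd5l-transgenic replicate 1 (127.6 CPM). Cd5l-transgenic replicate 2 also had the highest oligodendrocyte, astrocyte, neuron and erythroid marker sums (4176, 322, 9.75 and 20.7 CPM). It did not have the highest choroid plexus and ependymal or monocyte and neutrophil sums. The part of all these cells in the values of Ndufa4l2 and Cox4i2 was not tested.

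**Figure D4:**
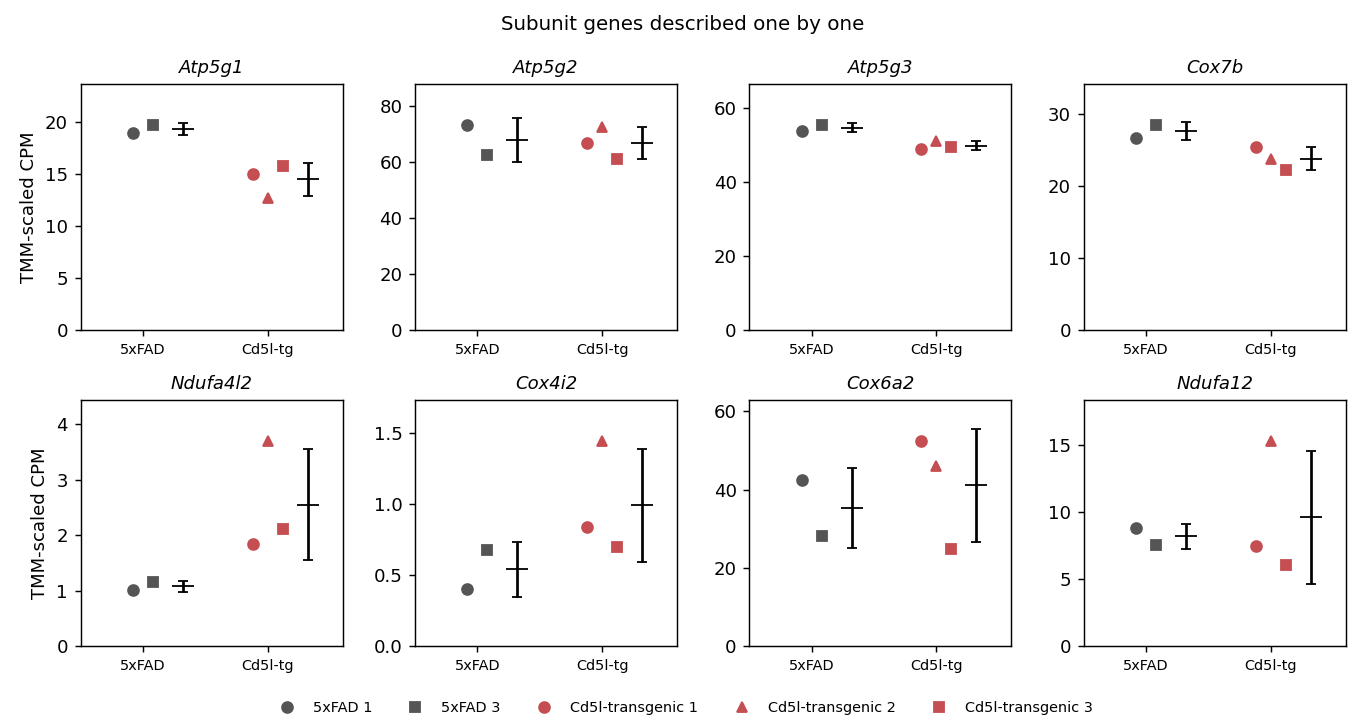
TMM-scaled CPM (y axis, from 0) of 8 subunit genes in each library, with the group mean and SD as a bar beside the points. The genotypes are apart for Atp5g1, Atp5g3, Cox7b, Ndufa4l2 and Cox4i2 and overlap for Atp5g2, Cox6a2 and Ndufa12, where Cd5l-transgenic replicate 2 alone is high.

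Complex V, ATP synthase, turns a ring of c subunits in the membrane and makes ATP in its F1 head. Its 17 tested members were 8 higher and 9 lower, with a median difference of -0.0095. Atp5b, the catalytic beta subunit, had the highest mean CPM of all members, at 357 and 340 CPM in the 5xFAD libraries, against 330, 356 and 337 CPM in Cd5l-transgenic libraries (log2 fold change -0.033, SE 0.082). Atp5a1, the alpha subunit, was at 338 and 320 against 320, 325 and 294 CPM. These head subunits overlapped between genotypes. Atp5l, subunit g of the membrane part, had the smallest p in the higher direction, at 31.8 and 27.5 against 34.4, 29.3 and 31.6 CPM (0.10, SE 0.11). Atp5o, the stalk subunit that confers oligomycin sensitivity, was at 18.1 and 17.5 against 16.7, 16.0 and 16.6 CPM, without overlap. Atpif1, the natural inhibitor of the enzyme and outside the symbol rule, was at 40.3 and 35.01 against 41.2, 39.0 and 34.8 CPM.

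The smallest p of all members belonged to a c ring gene, Atp5g1. Atp5g1, Atp5g2 and Atp5g3 encode the same mature c subunit behind different import sequences. Their RefSeq promoter windows are given in the same form as those above (GRCm38.p6, minus strand of the chromosome in each case) because the 3 genes make 1 mature protein. Atp5g1 is at chr11:96075602-96075881, Atp5g2 at chr15:102671018-102671297 and Atp5g3 at chr2:73911297-73911576. Capitals mark the NRF1 letters in Atp5g2 (position -42) and the ERR letters TCAAGGTCA on the opposite strand in Atp5g3 (position -52). No searched motif was found in the Atp5g1 window.
Atp5g1: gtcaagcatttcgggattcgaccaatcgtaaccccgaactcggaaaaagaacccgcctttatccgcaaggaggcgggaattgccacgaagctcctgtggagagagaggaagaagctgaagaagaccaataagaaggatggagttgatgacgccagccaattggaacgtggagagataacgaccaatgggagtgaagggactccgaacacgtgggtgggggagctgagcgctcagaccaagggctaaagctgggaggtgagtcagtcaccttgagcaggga
Atp5g2: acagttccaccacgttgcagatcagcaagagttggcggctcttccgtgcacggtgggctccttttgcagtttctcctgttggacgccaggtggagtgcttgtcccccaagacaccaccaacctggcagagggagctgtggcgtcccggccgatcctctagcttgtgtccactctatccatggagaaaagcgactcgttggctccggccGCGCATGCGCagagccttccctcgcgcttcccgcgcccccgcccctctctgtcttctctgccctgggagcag
Atp5g3: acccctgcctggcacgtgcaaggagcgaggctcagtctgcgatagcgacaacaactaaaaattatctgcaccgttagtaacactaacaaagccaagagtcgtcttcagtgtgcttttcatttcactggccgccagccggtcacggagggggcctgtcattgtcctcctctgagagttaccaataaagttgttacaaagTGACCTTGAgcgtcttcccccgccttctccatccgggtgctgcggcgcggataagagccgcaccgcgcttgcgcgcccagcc
By CPM per kb, Atp5g2 made up a mean of 59.7% of the c subunit RNA, Atp5g3 35.3% and Atp5g1 4.98%. By CPM without the length the shares were 49.7%, 38.2% and 12.1%, so the share of Atp5g1 depends on its listed length of 4912 bases.

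Atp5g1 lies at chr11:95959678-95966496 (GRCm39) and was at 19.0 and 19.8 CPM in the 5xFAD libraries, against 15.02, 12.7 and 15.8 CPM in Cd5l-transgenic libraries. All transgenic libraries were lower, and the log2 fold change was -0.42 (SE 0.13, edgeR adjusted p = 0.999). It stayed between -0.47 and -0.32 when single libraries were left out. Atp5g3 was at 53.8 and 55.4 against 48.9, 51.0 and 49.4 CPM, also without overlap (-0.13, SE 0.067, edgeR adjusted p = 0.999). Atp5g2, the most abundant, was at 73.4 and 62.4 against 66.9, 72.5 and 61.1 CPM and overlapped (-0.023, SE 0.11). By CPM per kb, the share of Atp5g1 in the c subunit RNA was 5.34% and 6.03% in 5xFAD and 4.68%, 3.72% and 5.16% in Cd5l-transgenic libraries. Differences between the 3 genes were not tested.

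Promoter windows were matched by symbol for 69 of the 88 members and searched over 300 bases on both strands, and shares are descriptions without a test. The NRF1 letters, a run of 10 bases that read the same on both strands, were in 5 of 69 member windows (7.25%: Ndufa11, Uqcrc1, Cox6a1, Atp5g2 and Atp5k) and in 1.07% of all 27025 genes with a window. The ETS letters CCGGAAG were in 17 members (24.6%, against 9.93%), 6 of them in complex V. The YY1 letters AAGATGGC were in 10 members (14.5%, against 3.19%), of which 7 were in complex I and 3 in complex V. The ERR letters TCAAGGTCA were in 2 members, Sdhd and Atp5g3 (2.9%, against 0.466%). The TATA letters TATAAA were in 8 members (11.6%, against 15.7%), including 2 of the 4 matched tissue isoforms, Cox8b and Cox7b2. None of the 5 letter strings contains another.

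Gene length went with the difference between libraries. Among the 21 tested members of up to 1000 bases, the median centred log2 level was 0.045 and -0.10 in 5xFAD and 0.072, 0.14 and -0.16 in Cd5l-transgenic libraries. Among the 33 members over 1000 and up to 2000 bases it was 0.081 and -0.063 against 0.035, 0.076 and -0.13. Among the 29 members over 2000 bases it was 0.055 and 0.0044 against -0.043, 0.026 and -0.044. Short members thus set replicate 3 of each genotype further below the others than long members did. All tested genes of up to 1000 bases were at 0.061 and -0.047 against 0.072, -0.0021 and -0.037. Those over 2000 bases were at 0.0013 and 0.016 against -0.015, -0.023 and -0.00092. From the shortest to the longest class, the median difference with the transgene was 0.038, 0.0045 and -0.046 for members. For all tested genes it was 0.0037, -0.017 and -0.029. The part of gene length in the complex sums was not tested.

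Assembly factors, which build the complexes but do not stay in them, gave 0 calls by edgeR or DESeq2 in each of the 5 lists. Their median differences were -0.063 (15 tested genes) for complex I, -0.079 (4) for complex II, 0.0028 (6) for complex III, -0.035 (19) for complex IV and -0.0056 (4) for complex V. The member with the smallest p in the complex IV list was Cox20, a chaperone of the mitochondrially encoded subunit 2, at 14.3 and 14.8 CPM in the 5xFAD libraries, against 12.9, 11.7 and 11.5 CPM in Cd5l-transgenic libraries (log2 fold change -0.27, SE 0.12). All transgenic values were lower. In the complex V list it was Fmc1, an assembly factor of the F1 head, at 1.63 and 1.89 against 2.55, 2.66 and 3.21 CPM (0.67, SE 0.28), all transgenic values being higher. In the complex I list it was Nubpl, which delivers iron-sulfur clusters, at 8.19 and 9.11 against 7.36, 6.80 and 6.44 CPM (-0.33, SE 0.16), again without overlap. The edgeR adjusted p of each was 0.999. Sdhaf1 of the complex II list (0.23, SE 0.17) and Ttc19 of the complex III list (-0.24, SE 0.18) also had adjusted p values of 0.999 by edgeR.

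The 13 mitochondrially encoded subunits followed another order of libraries than the nuclear ones. They summed to 12600.2 and 17228 CPM in the 5xFAD libraries, against 15744, 18789 and 12912 CPM in Cd5l-transgenic libraries, with overlap and 0 calls by either tool. The nuclear members summed to 4092 and 3779 against 3960.1, 4061 and 3659.98 CPM. 5xFAD replicate 3 was therefore high in mitochondrially encoded and low in nuclear-encoded RNA, while Cd5l-transgenic replicate 3 was low in both. The gene mt-Nd3, which had the smallest p of the mitochondrial list, was at 2.23 and 2.28 against 2.55, 4.67 and 2.15 CPM (log2 fold change 0.47, SE 0.40), and without Cd5l-transgenic replicate 2 the value was 0.069. Its mean per length was 7.98 CPM per kb, far below the 4440.03 CPM per kb of mt-Co1. How reads shared with nuclear copies of mitochondrial DNA were assigned was not given in the sources used here.

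**Figure D5:**
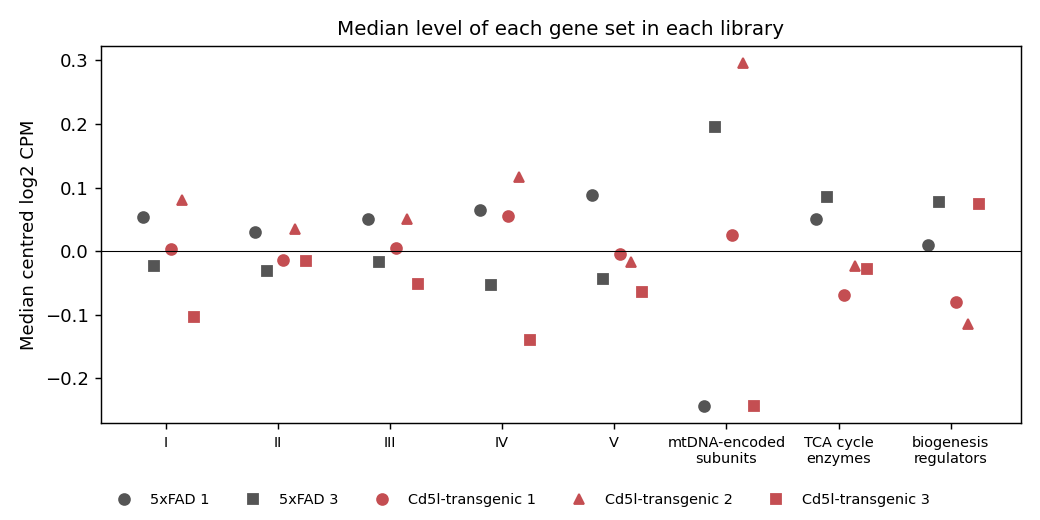
Median over genes of the centred log2 CPM (y axis) of each complex and of 3 companion lists in each library. In complexes I to V the libraries of both genotypes intermix, the mitochondrially encoded list spreads most, and the tricarboxylic acid cycle list has both 5xFAD libraries above the 3 Cd5l-transgenic ones.

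The tricarboxylic acid cycle enzymes, with the pyruvate dehydrogenase subunits, were 2 higher and 14 lower of 16 tested (57.2% of all genes were lower). Their median difference was -0.11. They summed to 1168 and 1161 CPM in the 5xFAD libraries, against 1099, 1118 and 1107 CPM in Cd5l-transgenic libraries, without overlap, and 8 of the 16 did not overlap, all in the lower direction (8.68% of all genes). Pdhb, the beta subunit of pyruvate dehydrogenase, was at 56.4 and 57.9 against 48.6, 48.1 and 51.1 CPM (log2 fold change -0.21, SE 0.069, edgeR adjusted p = 0.999). Dlat, the acetyltransferase of the same enzyme and named after its values were seen, was at 34.9 and 32.6 against 28.7, 29.5 and 30.2 CPM (-0.20, SE 0.079). None of the 16 was called by edgeR or DESeq2, and the difference between this list and the subunits was not tested.

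Among 12 regulators of mitochondrial biogenesis, 1 was higher and 11 lower (57.2% of all genes were lower), with a median difference of -0.12. There were 0 calls by edgeR (0% of all genes) or DESeq2 (0.0587%). Libraries did not overlap for 3 of the 12, Ppargc1b, Esrra and Polrmt, all in the lower direction (25%, against 8.68% of all genes). Ppargc1a, the coactivator that drives many subunit genes, was at 0.98 and 5.69 CPM in the 5xFAD libraries, against 0.84, 1.13 and 1.21 CPM in Cd5l-transgenic libraries. Its log2 fold change of -1.66 (SE 0.71) rested on 5xFAD replicate 3, without which it was 0.11. That is the library with the highest choroid plexus and ependymal marker sum, 4094 CPM. The astrocyte markers Aqp4 and Gja1 were also highest there (21.9 and 22.5 CPM), and the rest of the astrocyte list was not. The part of these cells was not tested. Nrf1 was at 30.7 and 32.8 against 31.1, 30.1 and 37.5 CPM, and Esrra, a nuclear receptor that binds the ERR letters, at 39.4 and 39.9 against 34.2, 36.4 and 37.7 CPM. Nrf1 overlapped between genotypes and Esrra did not.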

How the data were processed

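Bulk RNA sequencing gave 1 library per mouse, 2 of 5xFAD and 3 of Cd5l-transgenic mice, grouped and numbered from their titles. The sources used here do not state how CD11b-positive cells were isolated. The counts per Ensembl gene were used as the authors deposited them, as whole numbers without normalisation. Coordinates are in GRCm39 (mm39), per the submitters' processing notes. Aligner, counter, annotation release and strand setting were not given in the sources used here. Of the 88 members, 29 overlap on the opposite strand a row with a mean of at least 10 counts, and subunit genes have many processed pseudogenes, so shared reads may be assigned to either. The column of Cd5l-transgenic replicate 3 has the letters of its library name in another order and was matched by those letters and its number.

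The filter was filterByExpr by group (edgeR 4.0.16); counts were scaled by TMM (factors 0.952 to 1.02) and tested with the robust edgeR quasi-likelihood test under R 4.3.3, with genotype as the only term and differences coded Cd5l-transgenic minus 5xFAD. Benjamini-Hochberg adjustment ran over all 17724 genes that passed the filter, with 0.05 as threshold. DESeq2 1.42.0 (Wald test), other scalings, filters and left-out libraries were alternatives. Each SE is the fold change divided by the square root of F. Lists are described by counts and by medians of the difference of mean log2 CPM (prior count 2), with no test. The gene length per kilobase is that of the table, whose definition was not given in the sources used here. One count was worth 0.0282 to 0.0339 CPM, and such limits cover counting error only.

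The members and lists were chosen with earlier results of these data known. Named genes were, per complex, the member with the highest mean CPM and the smallest p in each direction, a set of core and isoform genes, and from each companion list the gene with the smallest p. Ndufa12, Ndufa1, Cox6b2 and Dlat were added after their values were seen. Atp5a1, Atp5o, Cox5b-ps, Nrf1 and Esrra are also described by library and fall under none of these rules. The newer symbols Atp5f1b, Atp5mc1, Atp5mc2, Atp5mc3 and Atp5if1 were matched to Atp5b, Atp5g1, Atp5g2, Atp5g3 and Atpif1 of the table. Protein identity between isoforms was not analysed here. The values of 1 complex I member are not reported here and it is left out of the plots by gene; the counts, sums and medians include it.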

Additional observations from a re-analysis of the deposited data

How the results depend on the processing

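No member was called by edgeR or DESeq2 under any alternative run. Over all genes, the count of calls was 0, 10 with the DESeq2 Wald test, 1 without a low-count filter and 0 to 9 when single libraries were left out (9 without 5xFAD replicate 1, 2 without 5xFAD replicate 3). It was 98 without 5xFAD replicate 3 and Cd5l-transgenic replicate 2 together, a setting chosen after seeing the data. With the replicate number as a block the count of called members was 0, 58 of 83 members were lower and the median of complex I was -0.046. The mice share only a number: the labels do not tie same-numbered mice, and with 2 5xFAD libraries, whose deviations mirror each other, the correlations of same-numbered deviations (0.13 and -0.24) decide nothing. The median of all tested genes was -0.026 with TMM, -0.0074 with DESeq2 factors, -0.0083 with upper-quartile factors and 0.0085 with library totals, so the sign of a complex's median or of a small fold change is not fixed.

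Without those 2 libraries together, the medians were -0.093 for complex I, -0.050 for complex II, -0.13 for complex IV and -0.12 for complex V. Library totals alone gave 0.021 for complex II. Leaving out single libraries gave -0.039 to 0.033 for complex II, -0.054 to 0.035 for complex III and -0.11 to 0.073 for complex V, the ends of complex V being without 5xFAD replicate 3 and without 5xFAD replicate 1. The causes were not tested.

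Among named genes that kept their sign when single libraries were left out, Cox5a ran from -0.14 to -0.033, Uqcrfs1 from -0.12 to -0.045, Ndufs1 from -0.10 to -0.031, Cox7a2 from 0.0026 to 0.18, Sdhaf1 from 0.12 to 0.34 and Ttc19 from -0.36 to -0.11. Several named genes, none called, changed sign in log2 fold change. Leaving out single libraries gave -0.10 to 0.015 for Ndufv1, -0.0060 to 0.070 for Sdha, -0.13 to 0.030 for Sdhb, -0.10 to 0.0014 for Sdhc, -0.11 to 0.13 for Cox4i1, -0.069 to 0.10 for Cox5b and -0.15 to 0.14 for Cox6a1. It gave -0.050 to 0.55 for Cox6a2, -0.13 to 0.24 for Cox7a2l, -0.081 to 0.12 for Cox8a, -0.14 to 0.031 for Ndufa4, -0.070 to 0.0039 for Atp5b, -0.14 to 0.099 for Atp5g2, -0.073 to 0.13 for Atpif1 and -0.0019 to 0.21 for Atp5l. It gave -0.25 to 0.018 for Dmac2l, -2.42 to 0.11 for Ppargc1a, -0.26 to 0.50 for Ndufa12 and -0.42 to 0.62 for Cox6b2. For Cox8b it gave -1.38 to 6.31, the last against a library with no count, so that value depends on the prior count and is no bound. Without the 2 libraries together, values were -0.016 for Sdha, -0.14 for Cox4i1, -0.13 for Cox6a2, -0.068 for Cox7a2, -0.16 for Cox7a2l, 0.065 for Ndufa4, -0.076 for Atpif1, 0.072 for Ppargc1a and -0.38 for Ndufa12. With the replicate block they were -0.033 for Cox4i1, -0.0105 for Cox7a2, -0.28 for Ndufa12 and -0.11 for Cox6b2. DESeq2 factors, upper-quartile factors and the DESeq2 test gave 0.0175 each for Cox5b, and 0.0035, 0.0025 and 0.0034 for Cox8a. The filter at 5 CPM in 2 samples gave 0.032 for Cox5b, 0.0098 for Cox6a1, 0.018 for Cox8a, 1.2e-05 for Atp5b and 0.011 for Atp5g2. The causes were not tested.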
